A study of Mus musculus with 60 samples.

Results

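The TRIM genes encode the tripartite motif proteins, and their transcripts were followed here across 3 mouse tissues, 2 ages and 2 diets. The members are all probe sets of the Affymetrix Mouse Genome 430 2.0 array whose annotated symbol begins with Trim and a digit, without the single probe set of Trim63. They are 113 of the 45101 probe sets of the array. A single symbol was given for 110 of them, which cover 57 of the 18193 genes with such a probe set, and 3 list several symbols (2 for Trim34b and Trim34a, 1 for Trim30d and Trim30a) and are counted but not interpreted. More than 1 probe set was present for 31 genes, with at most 6 for a gene, and each probe set was counted on its own. The probe sets of a gene are lettered here in the order of their array identifiers. Trim55, Trim30b, Trim30c, Trim34b, Trim38 and Trim58 have no probe set of their own symbol.

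A TRIM protein carries a RING finger, 1 or more B-boxes and a coiled coil in this order, followed by a C-terminal domain that selects its partners. The RING finger takes up a ubiquitin-charged E2 enzyme and passes the ubiquitin to a target, so that most members act as E3 ubiquitin ligases, and the coiled coil pairs the molecules. The family divides by role into sarcomere-bound members of striated muscle, nuclear corepressors of the TIF1 type, antiviral members that are induced by interferon, members that act on axons and microtubules in neurons, and many others.

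RNA was measured in heart, gastrocnemius muscle and neocortex of male B6C3F1 hybrid mice (C57BL/6 crossed with C3H/He), with 5 arrays in each group and 1 animal on each array, 60 arrays in all. Old CR mice, aged 30 months, had been calorie restricted since 14 months of age, by 40% in the sample labels (the methods describe a milder restriction). Old resveratrol mice, also 30 months old, had received the control diet with 4.9 mg of resveratrol per kg per day since 14 months. Old control mice of 30 months and young control mice of 5 months ate the unsupplemented control diet. The strain has no engineered allele, and only males were studied.

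Values are linear array signals brought to the same trimmed mean, 500, array by array. Changes are log2 differences between group means with the SE of a limma fit over the 20 arrays of a tissue, adjusted by Benjamini-Hochberg over all 27000 probe sets tested in the tissue, and a probe set rose or fell where the adjusted p was under 0.05. Age is old control minus young control, and each diet is compared with old controls, so that the age and the diet comparisons share the old control arrays. A probe set was tested if its mean signal reached the 40th percentile of the tissue, which held for 72 members in heart, 69 in muscle and 73 in neocortex.

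Several arrays and groups stood apart in quality. The log2 difference between 3' and 5' probe sets of Actb, a measure of RNA integrity, was 0.787 ± 0.112 in old CR and 0.819 ± 0.117 in old resveratrol hearts, 1.39 ± 0.160 in old control hearts and 0.719 ± 0.100 in young control hearts (SD, n = 5), and old control hearts did not overlap with the other groups. In neocortex it was 0.709 ± 0.0448 in old CR and 0.887 ± 0.0939 in old resveratrol samples, against 0.546 ± 0.0641 in old control samples. In muscle it reached 1.40 in old control replicate 1 and 1.11 in young control replicate 4, while the other control arrays had 0.0861 or less. The same difference for Gapdh in muscle was -0.232 or less on every diet array, against 3.23, 0.537 and 0.367 in old control replicates 1, 2 and 5 and 0.194 in young control replicate 4. The mean log2 signal of the spiked poly-A controls in muscle was 9.92 under CR and 10.0 under resveratrol, against 6.78 in old and 7.41 in young controls. The defining markers of each tissue were at the top of the scale, with cardiomyocyte, skeletal fibre and neuron marker sums far above those of the other tissues. In bulk tissue, fewer cells of a type and less RNA per cell cannot be told apart. The part of RNA integrity and labelling in the results below was not tested, and values without 2 outlying arrays of heart (young control replicate 1, old control replicate 4) and of muscle (old control replicate 1, young control replicate 4) are given where they matter.

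The sequences before the transcription starts of 2 kinds of members are shown. Trim12c, Trim30a, Trim26 and Trim54 recur in the results below, and Trim5 and Trim30d are shown as close copies of Trim12c and Trim30a. Promoter windows of 300 bases (250 before and 50 after the start, RefSeq, build GRCm38.p6) were found for 46 of the 57 genes, in 60 windows. The interferon response element, GAAA followed by any 2 bases and GAAA, which binds factors of the interferon pathway, was present on either strand in 10 of these windows (16.7%), from 9 genes, against 3.4% of all 32851 windows. Most of the 10 windows lie on chromosome 7 and include those of close gene copies, so that they are not separate cases. Whether the shares differ was not tested. For 5 of the 9 genes the stretch around a match before the start is shown, each on the strand of its gene. The matched letters are in capitals, and the match reads on the opposite strand.
Trim12c (chr7:104353354-104353393, minus strand): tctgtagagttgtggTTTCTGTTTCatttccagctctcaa
Trim5 (chr7:104288131-104288170, minus strand): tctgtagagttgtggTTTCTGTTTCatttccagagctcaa
Trim30a (chr7:104465205-104465244, minus strand): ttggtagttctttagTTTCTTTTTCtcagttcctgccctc
Trim30d (chr7:104507866-104507905, minus strand): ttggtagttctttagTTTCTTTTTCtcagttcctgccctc
Trim26 (chr17:36836971-36837016, plus strand): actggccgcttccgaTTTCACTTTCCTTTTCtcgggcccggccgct
The Trim12c and Trim5 stretches are identical at 38 of 40 bases and those of Trim30a and Trim30d at all 40 bases. These genes are close copies of each other on chromosome 7, and their probe sets may bind transcripts of more than 1 copy.

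Trim54 is shown for its signal in heart and muscle. Its window holds CATTCC, the M-CAT element known from promoters of muscle genes, at 2 places, once on each strand, in capitals here. M-CAT letters were present in 15% of the Trim windows and in 14.7% of all windows, so that the match describes the window and no more.
Trim54 (chr5:31116434-31116557, plus strand): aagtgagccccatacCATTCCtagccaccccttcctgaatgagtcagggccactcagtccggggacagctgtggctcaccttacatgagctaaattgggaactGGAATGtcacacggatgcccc

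The largest differences of the family lay between tissues. In 1 fit of all 60 arrays, 73 members were tested, and a difference was called at an adjusted p under 0.05 and at least 1 on the log2 scale. Of these, 17 were higher and 25 lower in heart than in neocortex (57.5% of members, against 47.8% of all probe sets), 18 higher and 23 lower in muscle than in neocortex (56.2%, against 51.6%), and 4 higher and 8 lower in heart than in muscle (16.4%, against 27.9%). The labels do not tie the tissues to mice, and the fit took every array as a separate mouse.

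**Figure D1:**
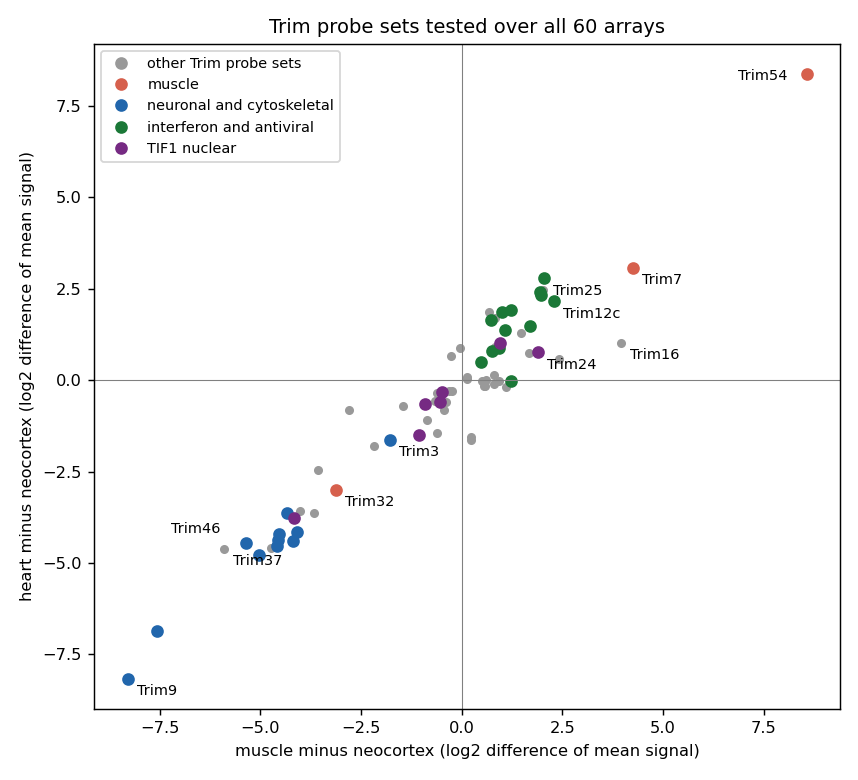
Log2 difference of mean signal of muscle minus neocortex (horizontal) and heart minus neocortex (vertical) for the 73 Trim probe sets tested over all 60 arrays, coloured by role. Trim54 stands at 8.57 and 8.37 and a Trim9 probe set at -8.29 and -8.16, and the interferon-induced members lie mostly in the upper right. Both axes share the neocortex arrays, so that points fall along the diagonal in part by construction.

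Trim54 (MuRF3), a ligase bound to microtubules and the sarcomere of striated muscle, had a mean signal of 9071 in heart and 10479.6 in muscle, against 34.8 in neocortex. The difference from neocortex was 8.37 (SE 0.22) in heart and 8.57 (SE 0.22) in muscle on the log2 scale, with groups far apart. Trim7, which binds glycogenin, the primer of glycogen synthesis, had means of 413 in heart and 936 in muscle, against 58.0 in neocortex (probe set c). Trim16, which lacks a RING finger, was highest in muscle, with a mean of 575, against 90.9 in heart and 36.3 in neocortex (probe set b). Trim54, Trim7 and Trim16 passed the filter, a mean signal of 90.9 over all 60 arrays, only through heart or muscle. The direction of their differences was thus in part fixed by the filter. Trim32, a ligase mutated in a human limb-girdle muscular dystrophy, was by contrast highest in neocortex, with means of 417 in heart and 374 in muscle, against 3309 in neocortex.

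Of the 17 probe sets of neuronal and cytoskeletal members, 11 were tested, from Trim2, Trim3, Trim9 and Trim46. All 11 were lower in heart and in muscle than in neocortex. Of all probe sets, 47.8% (heart) and 51.6% (muscle) were called against neocortex in either direction. The filter was a mean signal of 90.9 over all 60 arrays. Trim9 probe set a and Trim46, low in heart and muscle, passed it only through neocortex. The direction of the count was thus in part fixed by the filter. Trim2, which ubiquitinates the light neurofilament chain, had mean signals of 336 in heart and 260.2 in muscle, against 5898 in neocortex (probe set a). Trim9, a brain ligase of axon branching, had 9.43 in heart and 8.56 in muscle, against 1205 in neocortex (probe set a). Trim46, which bundles microtubules at the axon initial segment, had 56.7 in heart and 30.5 in muscle, against 948 in neocortex. Of members with other roles, Trim37, a ligase of centrosomes and peroxisomes, had 169.6 in heart and 79.6 in muscle, against 3428 in neocortex (probe set e), and Trim66, the testis-known TIF1 member, 50.0 in heart and 41.2 in muscle, against 535 in neocortex. Trim66 also passed the filter only through neocortex. The other 6 neuronal probe sets were not tested over the tissues. They include Trim67, a brain relative of Trim9, near the floor in neocortex with means of 38.5 to 53.0 over the 4 groups, and those of Trim36 and Trim71, of which the lowest had means of 3.44 to 5.34 and the highest 139 to 216.

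Of the 24 probe sets of antiviral members, 13 were tested over the tissues. Of these 13, 9 were higher in heart and 9 in muscle than in neocortex, with none lower. Of all probe sets, 47.8% (heart) and 51.6% (muscle) were called against neocortex in either direction. The filter, a mean signal of 90.9 over all arrays, could be passed through heart and muscle alone. The direction of the count may thus in part be fixed by the filter. Trim25, Trim56, Trim12c and Trim21, given next, had neocortex means above this cut-off. Trim25, which ubiquitinates the RNA sensor RIG-I, had a mean signal of 1203 in heart and 721 in muscle, against 177 in neocortex (probe set a). Trim56, a ligase linked to the STING pathway, had 611 in heart and 504 in muscle, against 126 in neocortex, and Trim12c, a mouse relative of human TRIM5, had 458 in heart and 499.9 in muscle, against 109 in neocortex. Trim21, an intracellular antibody receptor, had 539 in heart and 429 in muscle, against 202 in neocortex (probe set b). Trim47, outside that group, had 582 in heart and 422 in muscle, against 108 in neocortex. Trim72, which seals breaks in the membrane of muscle cells, had a probe set near the floor that was not tested, with means of 8.50 to 19.0 in the 4 muscle groups and 20.4 to 44.4 in the 4 heart groups, so that its level cannot be judged. On the single heart arrays it had 39.5, 36.1, 13.3, 34.4 and 98.8 under CR, 12.6, 28.3, 9.87, 10.5 and 42.3 under resveratrol, 20.5, 5.24, 15.9, 132 and 27.7 in old controls and 21.0, 20.3, 21.1, 16.8 and 23.1 in young controls.

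For age and diet, the share of members called is given beside the share over all probe sets. The comparisons share arrays, and whether the shares differ was not tested. With age, 2 members rose and 1 fell in heart (4.17% of the members tested, against 12% of all probe sets), none rose or fell in muscle (0 of 69, against 0.830%), and 2 fell in neocortex (2.74%, against 0.741%). In muscle, 6 members had an unadjusted p under 0.05 for age in limma. Without old control replicate 4 the muscle count was 2 and without young control replicate 4 it was 1, and in neocortex it was 1 without any single array of the 2 groups.

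CR moved 5 members up and 6 down in heart (15.3%, against 20.6%), 9 up and 11 down in muscle (29%, against 32.9%) and 4 up and 11 down in neocortex (20.5%, against 26.5%). Under quantile normalization the CR counts were 4 up and 9 down in heart, 6 up and 13 down in muscle and 6 up and 9 down in neocortex. Resveratrol moved 1 up and 5 down in heart (8.33%, against 15.2%), 4 up and 9 down in muscle (18.8%, against 20.6%) and 9 up and 9 down in neocortex (24.7%, against 24.1%). The CR count in heart was 7 in place of 11 without old control replicate 5, and in muscle 13 in place of 20 without old control replicate 4. The resveratrol count in muscle was 8 in place of 13 without old control replicate 4 or old resveratrol replicate 5. Between the diets themselves, CR was lower than resveratrol for 1 member in heart (1.39%, against 2.76%) and 1 in muscle (1.45%, against 0.344%), and for 5 in neocortex with 1 higher (8.22%, against 8.12%). The count of 1 in muscle was 2 without old CR replicate 1 and 0 without old CR replicate 3, 4 or 5 or old resveratrol replicate 1, 2, 3 or 4. The median CR change of the members in muscle was -0.03, against 0.16 over all probe sets tested, and in neocortex -0.05 against -0.02.

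Some markers of other cell types moved with the diets in heart, where 20.6% (CR) and 15.2% (resveratrol) of all probe sets were called. Of the macrophage markers, 4 of 6 rose under CR and 3 of 6 under resveratrol, and their summed signal was 14130 to 18380 under CR and 12480 to 19400 under resveratrol, against 8840 to 12450 in old controls. Under each diet 1 of 4 fibroblast markers (Dcn) and 1 of 2 erythroid markers tested (Alas2) rose, and the others in these lists were not called. The fibroblast sum was 31910 to 36760 under CR and 25090 to 32850 under resveratrol, against 12720 to 26930 in old controls. The erythroid sum was 5535 to 22610 under CR and 3369 to 7982 under resveratrol, against 1858 to 3153 in old controls. Their part in the heart results was not tested.

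The diets share the old control arrays, and no member was called in opposite directions under them. In heart 1 member rose and 3 fell under both, in muscle 4 rose and 6 fell, and in neocortex 3 rose and 5 fell. The share of all probe sets called under both diets was not computed, so these counts do not set the family apart. The paper reports a shared direction for nearly all genes changed by both diets and not by age. Within a gene, probe sets could go opposite ways, as for Trim8 in heart under CR, Trim23 and Trim27 in muscle under CR, Trim23 in muscle under resveratrol, Trim41 in neocortex under CR, and Trim2 and Trim35 in neocortex under resveratrol, and these genes are given by probe set.

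**Figure D2:**
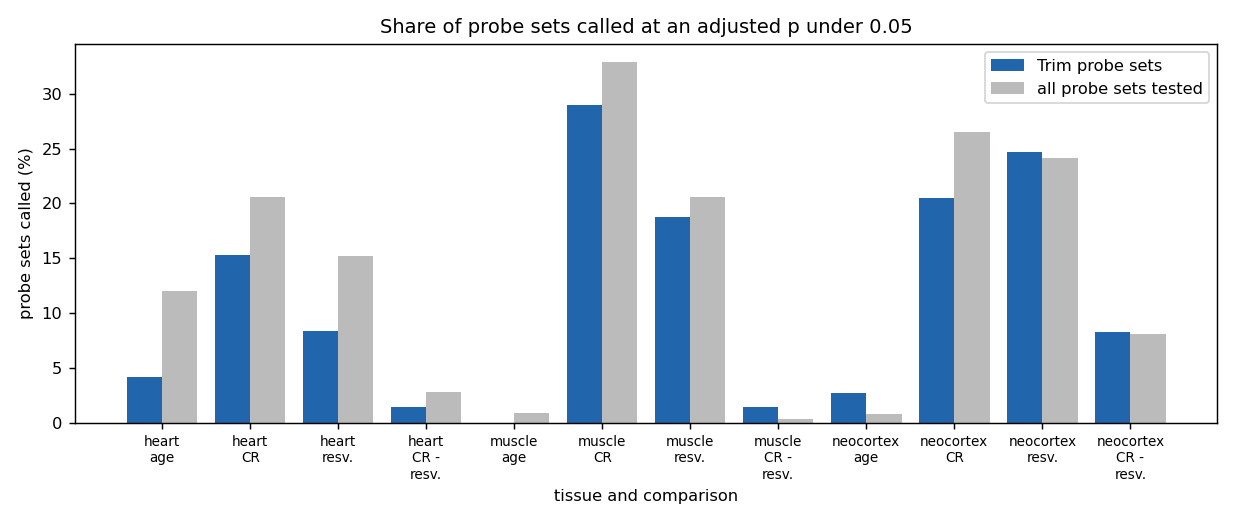
Percent of probe sets called at an adjusted p under 0.05 in each tissue and comparison, for the Trim probe sets (left bar) and all 27000 probe sets tested (right bar). Under CR the shares were 15.3 against 20.6% in heart, 29 against 32.9% in muscle and 20.5 against 26.5% in neocortex. Whether they differ was not tested.

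Among the muscle members, Trim54 rose with age in the heart and fell under resveratrol. The signals were 13350.4, 12390.3, 10668, 11549.9 and 12370.3 in old control hearts, against 4361, 7607, 8706, 7761 and 8526 in young control hearts. All old control values lay above all young control values, a rise (log2 change 0.74, SE 0.14, adjusted p = 0.000587). Without the outlying arrays it was 0.58 (adjusted p = 0.000266). In old resveratrol hearts the signals were 7371, 8142, 7049.6, 7156 and 6013, below every old control, a fall (log2 change -0.76, SE 0.14, adjusted p = 0.000364). The old CR values, 8717, 10749, 8421, 9994 and 10527, overlapped those of the old controls and gave a log2 difference of -0.32 (SE 0.14, adjusted p = 0.0996). The direct difference of CR minus resveratrol was 0.44 (SE 0.14, adjusted p = 0.0858).

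In muscle, Trim54 signals were 8679, 3778, 7095, 10038 and 9833 under CR, against 8782, 10340.2, 14523, 13222 and 11906 in old controls, a fall (log2 change -0.64, SE 0.21, adjusted p = 0.0252) with overlapping groups. The resveratrol arrays gave 11515, 10265, 7510.3, 11109 and 8797, a log2 difference of -0.25 (SE 0.21, adjusted p = 0.421), and the young controls 14154, 12547, 11956, 9917 and 13627. The CR arrays vary widely, with the second at 3778 and the others at 7095 or more. The difference between heart and muscle in the Trim54 change did not pass the test for CR or for resveratrol.

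Trim32 fell in heart under both diets. Its signals were 299.7, 313, 294, 337 and 416 under CR and 348, 414, 376, 327 and 339.8 under resveratrol, against 502, 653, 534, 455 and 695 in old control hearts. Every diet value lay below every old control value. The log2 changes were -0.77 (SE 0.17, adjusted p = 0.00224) under CR and -0.64 (SE 0.17, adjusted p = 0.0123) under resveratrol. In muscle it did not pass the test, with 402, 249, 391, 320.5 and 437 under CR, 395, 448, 386, 387 and 407 under resveratrol and 488, 409.5, 336, 349.8 and 426 in old controls. The resveratrol change differed between heart and muscle by -0.66 (adjusted p = 0.0359). In neocortex, where its signal is highest, Trim32 had 2986, 2846, 2400.4, 3000.4 and 2822 under CR and 2456, 2603, 3378, 2716 and 2425 under resveratrol, against 3763, 4035, 2853, 3476 and 3984 in old controls. The groups overlap, and it fell under resveratrol (log2 change -0.42, SE 0.15, adjusted p = 0.0483), while the log2 difference under CR was -0.36 (SE 0.15, adjusted p = 0.0835).

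**Figure D3:**
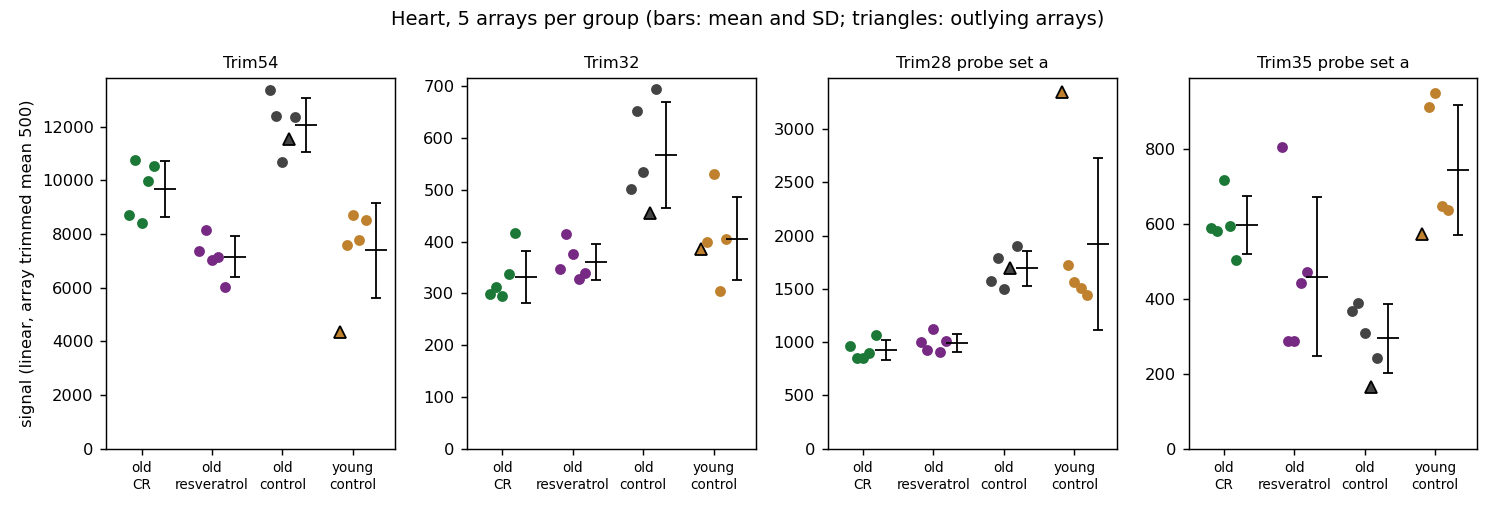
Signal of 4 Trim probe sets on every heart array, by group, with mean and SD and the outlying arrays as triangles. Trim54 is above every young control in the old controls, Trim32 and Trim28 lie below every old control under both diets, and Trim35 lies above every old control under CR.

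The TIF1 members Trim24, Trim28, Trim33 and Trim66 are nuclear proteins with a PHD finger and a bromodomain. Trim28 (KAP1) is the corepressor of the KRAB zinc finger proteins. In heart it fell under both diets. The signals of probe set a were 967, 853, 848, 897 and 1065 under CR and 1004, 931, 1124, 904 and 1010.1 under resveratrol, against 1572, 1792, 1500.1, 1695 and 1902 in old controls, and no diet value reached the lowest old control. On the log2 scale the changes were -0.87 (SE 0.16, adjusted p = 0.000342) under CR and -0.77 (SE 0.16, adjusted p = 0.00175) under resveratrol. Young controls gave 3349, 1720.2, 1562, 1507 and 1446, of which the first is an outlying array.

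In neocortex the same probe set had 1684, 1666, 1633, 2109 and 1866 under CR and 1700.0, 2152, 2173, 1605 and 1820.2 under resveratrol, against 2346, 2377, 2029.8, 2158 and 2436 in old controls. The groups overlap, and the log2 changes were -0.34 (SE 0.09, adjusted p = 0.00658) under CR and -0.27 (SE 0.09, adjusted p = 0.0305) under resveratrol. The resveratrol call was lost without old control replicate 1, 2 or 5 or without old resveratrol replicate 1, 4 or 5 (adjusted p = 0.0609 to 0.1002). The second Trim28 probe set, b, did not pass the test with either diet, with log2 changes of -0.03 (CR) and -0.20 (resveratrol) in heart and -0.03 and -0.02 in neocortex, so that the fall rests on 1 probe set. In muscle the first probe set had log2 changes of -0.30 under CR and 0.005 under resveratrol, which did not pass the test, and its resveratrol change differed between heart and muscle by -0.77 (adjusted p = 0.0449).

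Trim24 (TIF1 alpha, a partner of nuclear receptors) and Trim33 (TIF1 gamma, which acts on SMAD4) moved in muscle in opposite directions. Trim24 signals were 1394, 953, 1239.5, 1478 and 1195 under CR and 1355, 1212, 1031, 1572 and 1328 under resveratrol, against 1913, 1663, 1691, 1664 and 1953 in old controls, all diet values lying below all old control values. The log2 changes were -0.52 (SE 0.13, adjusted p = 0.00496) under CR and -0.46 (SE 0.13, adjusted p = 0.0152) under resveratrol, the last of which was lost without old resveratrol replicate 3 (adjusted p = 0.0513). Trim33 rose, with 1104, 1186, 1158, 1299 and 1088 under CR and 1455, 1149, 1253, 1339 and 1271 under resveratrol, against 953, 591, 739, 662 and 796 in old controls. On the log2 scale the changes were 0.66 (SE 0.15, adjusted p = 0.00301) under CR and 0.80 (SE 0.15, adjusted p = 0.000931) under resveratrol. Its young controls gave 736, 701, 707, 1248 and 771.

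Old control replicate 1 and young control replicate 4, the muscle arrays with the high Actb difference, are the highest of their groups for Trim33, and young control replicate 4 lies within the diet range. Without the 2 arrays the Trim33 changes were 0.75 (adjusted p = 4.53e-05) under CR and 0.90 (adjusted p = 7.80e-06) under resveratrol. The second Trim33 probe set, b, gave -0.27 under CR and -0.17 under resveratrol in muscle, neither of which passed the test. In neocortex that probe set rose under CR, with 1367, 1362, 1182, 1111 and 1309, against 1072, 938, 948, 1002 and 1022 in old controls, a rise (log2 change 0.34, SE 0.10, adjusted p = 0.0129) without overlap.

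In heart Trim24 rose under CR, with 825, 783, 834, 779 and 686, against 534, 574, 689.9, 547 and 612 in old controls (log2 change 0.40, SE 0.14, adjusted p = 0.0442), and the groups overlap narrowly. The call was lost without the 2 outlying arrays (adjusted p = 0.0506) and without any single array of the 2 groups other than old control replicate 3 and old CR replicate 5 (adjusted p = 0.0599 to 0.0963). The resveratrol arrays gave 600.1, 654, 739, 523 and 606, a log2 difference of 0.08 (SE 0.14, adjusted p = 0.791). The Trim24 change under CR was higher in heart than in muscle by 0.92 (adjusted p = 0.000132) and than in neocortex by 0.64 (adjusted p = 0.0201). Trim66 fell under CR in neocortex, to a mean of 436, against 595 in old controls (log2 change -0.46, adjusted p = 0.0103).

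**Figure D4:**
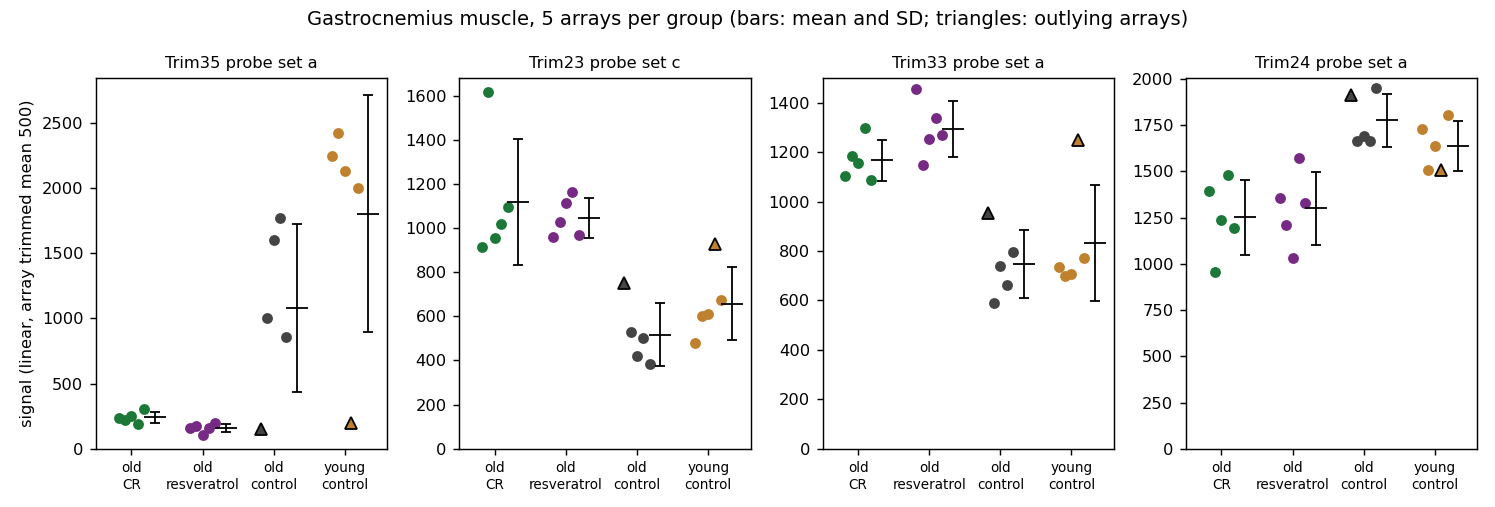
Signal of 4 Trim probe sets on every muscle array, by group, with mean and SD and the outlying arrays as triangles. The outlying control arrays lie with the diet arrays for Trim35 and close to them for Trim23 and Trim33, and within the other controls for Trim24.

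The neuronal members Trim2, Trim3, Trim9 and Trim46 are taken first in neocortex. Trim9 is the member that fell with age there. Probe set b had 2056, 1522, 1950.4, 1638 and 1615 in old controls, against 2364, 3285, 3258, 2628 and 3202 in young controls. No old value reached the lowest young value, and it fell (log2 change -0.74, SE 0.11, adjusted p = 0.00116). A second Trim9 probe set, d, had 1989.6, 1979, 1604, 1804 and 1864 in old controls, against 2310.4, 2139, 2514, 2328 and 2227 in young controls, a fall (log2 change -0.32, SE 0.08, adjusted p = 0.0493) that lost its call with any single array of these groups left out, while the call of probe set b was kept.

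Under resveratrol, Trim9 was higher. Probe set b had 2734, 2402, 2724, 2516 and 2168 in old resveratrol neocortex, above every old control, a rise (log2 change 0.52, SE 0.11, adjusted p = 0.00147). Under CR it gave 1513, 1863, 1687, 2019.8 and 1412, a log2 difference of -0.05 (SE 0.11, adjusted p = 0.782) from old controls, and CR minus resveratrol was -0.57 (SE 0.11, adjusted p = 0.00422). Another, probe set c, gave 156, 154, 263, 153 and 136 under CR, against 234, 359.9, 298, 286 and 213 under resveratrol, a difference of -0.71 (SE 0.19, adjusted p = 0.0236) with overlapping groups. Without old CR replicate 2 or 5, or old resveratrol replicate 2, 3 or 4, that difference lost its call (adjusted p = 0.0514 to 0.0694). Probe set a did not show this split. It had 1274, 1426, 1430, 1530 and 1206 under resveratrol, above every old control (1022, 1083, 932, 973 and 932). Its CR values, 1134, 1085, 1461, 870 and 1544, overlapped both groups. Young controls had 1310, 1227, 1342, 1143 and 1168. Its age, CR and CR minus resveratrol changes were not called.

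Trim46 and Trim3 fell under both diets and did not pass the test for age. Trim46 had 584, 617, 684, 647 and 771 under CR and 624, 807, 710.2, 657 and 590.3 under resveratrol, against 1074, 1379.9, 1043, 1118 and 1214 in old controls and 1289, 1309.9, 1208, 1465 and 1177 in young controls. All diet values lay below all control values. The log2 changes were -0.82 (SE 0.10, adjusted p = 3.75e-06) under CR and -0.78 (SE 0.10, adjusted p = 6.90e-06) under resveratrol.

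Trim3, a brain ligase of postsynaptic scaffold proteins, had 1166, 1458, 1561, 1748 and 1338 under CR and 1462, 1277, 1654, 1259.9 and 1398 under resveratrol, against 2332, 2434, 2078, 2641 and 2621 in old controls. The diet and control values do not overlap, and the log2 changes were -0.74 (SE 0.10, adjusted p = 1.48e-05) under CR and -0.78 (SE 0.10, adjusted p = 9.15e-06) under resveratrol. Trim3 also fell in heart under resveratrol, to a mean of 531, against 755 in old controls (log2 change -0.51, adjusted p = 0.0391). Its change under resveratrol was higher in muscle than in neocortex by 0.79 (adjusted p = 0.0154).

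Trim2 in neocortex had high signal and no call for its highest probe set, 5701, 6205, 5221, 5533 and 5404 under CR, 5831, 6495, 7354, 6726 and 6102 under resveratrol and 6792, 5909.9, 5599, 5725 and 5307 in old controls. Probe set f rose there on the log2 scale by 0.26 under CR and 0.20 under resveratrol, and probe set e had a log2 change of -0.35 under resveratrol, a fall. In muscle Trim2 is low, and probe set f had 592, 373, 368, 419 and 261 under CR, against 276, 158, 161, 132 and 181 in old controls, a rise (log2 change 1.15, SE 0.29, adjusted p = 0.00527) with overlap of the first old control. Neuron marker sums in muscle had a median of 635.1 under CR and 335 under resveratrol, against 295.8 in old controls. Their part in this rise was not tested.

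**Figure D5:**
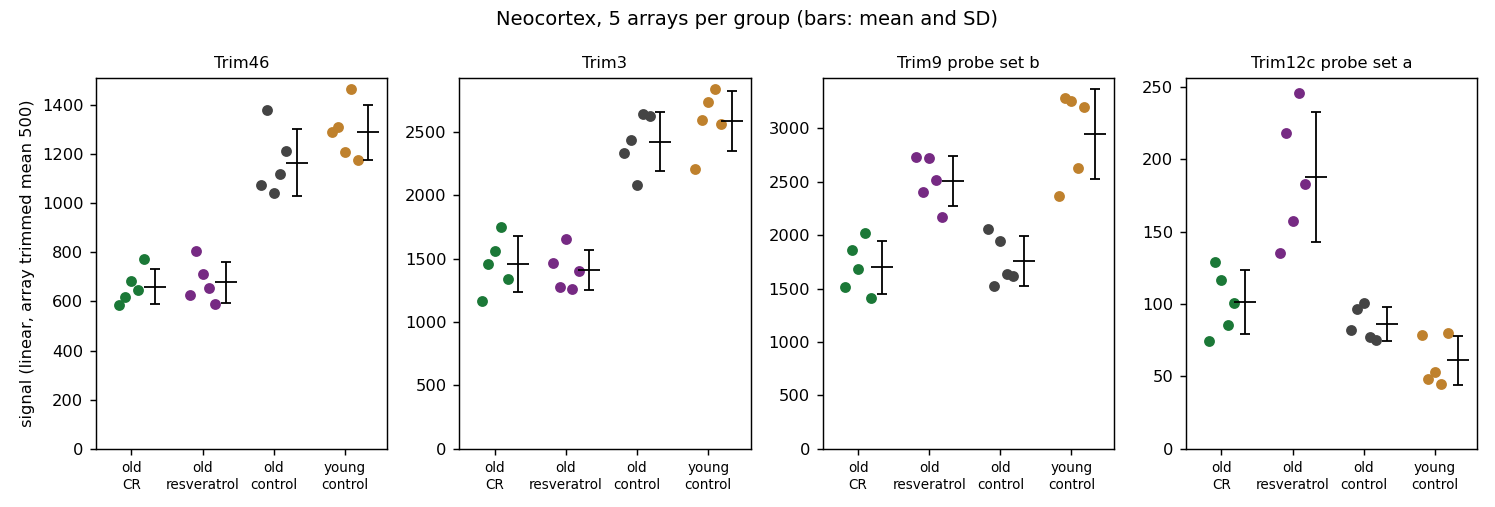
Signal of 4 Trim probe sets on every neocortex array, by group, with mean and SD. Trim46 and Trim3 lie below all control arrays under both diets, Trim9 lies above the old controls under resveratrol and in young controls, and Trim12c is highest under resveratrol.

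Of the antiviral members, 17 probe sets were tested in heart, 15 in muscle and 12 in neocortex. CR moved 0 up and 1 down in heart (against 20.6% called of all probe sets), 1 up and 2 down in muscle (against 32.9%) and none in neocortex (against 26.5%). Resveratrol moved 2 up and none down in neocortex (against 24.1%) and none in heart (against 15.2%) or muscle (against 20.6%). Trim12c is the antiviral member that set the diets apart, at probe set a, from which all its signals here are given. In neocortex it had 74.4, 129, 116, 85.4 and 101 under CR and 135, 218, 158, 246 and 183 under resveratrol, against 81.8, 96.3, 101, 77.5 and 74.8 in old controls and 78.8, 48.5, 53.1, 44.8 and 80.1 in young controls. The resveratrol values lay above those of all other groups, a rise (log2 change 1.10, SE 0.22, adjusted p = 0.000726). CR minus resveratrol was -0.89 (SE 0.22, adjusted p = 0.0152), a call that was lost without old resveratrol replicate 4 (adjusted p = 0.0502). The other Trim12c probe set, b, was called neither under resveratrol in neocortex nor between the diets in neocortex or muscle.

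In muscle Trim12c had 434, 373, 287, 367 and 279 under CR, against 579, 843, 823, 611 and 473 under resveratrol, a difference of -0.92 (SE 0.19, adjusted p = 0.0345) without overlap, and old controls had 643, 451, 406, 542 and 478. This call was lost without old CR replicate 3, 4 or 5, without old resveratrol replicate 1, 2, 3 or 4 (adjusted p = 0.0518 to 0.113) and in a fit of the diets alone (adjusted p = 0.102). In heart it had log2 changes of -0.44 under CR and 0.03 under resveratrol that did not pass the test, and the resveratrol change differed between heart and neocortex by -1.07 (adjusted p = 0.0359). The Trim12c stretch printed above stands beside these values as a description. Trim30a, another interferon-induced member, rose in neocortex under resveratrol to a mean of 224, against 138 in old controls (probe set a, log2 change 0.63, adjusted p = 0.0133) and fell in heart under CR to 246, against 409 in old controls (probe set b, log2 change -0.70, adjusted p = 0.0487). Trim14, which lacks a RING finger, rose in muscle under CR to 238, against 138 in old controls (log2 change 0.93, adjusted p = 0.0378), and Trim26 fell there to 499, against 908 (log2 change -0.93, adjusted p = 0.00164). The macrophage marker sum in neocortex had a median of 5739 under CR and 6796 under resveratrol, against 5675 in old controls, and its part in these changes was not tested.

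Trim35, first named for a role in blood cell lineages, moved in all 3 tissues. In heart, probe set a had 369, 389, 309, 166 and 243 in old controls, against 575, 914, 950.4, 649 and 638 in young controls, a fall with age (log2 change -1.37, SE 0.25, adjusted p = 0.000599) without overlap. Under CR it had 589, 581, 718, 596 and 504, above every old control, a rise (log2 change 1.07, SE 0.25, adjusted p = 0.00311). Resveratrol gave 807, 288, 288, 443 and 472, which overlaps the old controls, with a log2 difference of 0.59 (SE 0.25, adjusted p = 0.121). The other heart probe set tested, probe set c, had changes of -0.01 under CR and -0.04 under resveratrol.

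In muscle probe set a had 234, 219, 249.7, 191 and 306 under CR and 162, 177, 106, 157 and 194 under resveratrol, against 154, 1002, 1603, 1766 and 859 in old controls and 2247, 2424, 2133, 199 and 2000.1 in young controls. Apart from the outlying old control replicate 1 and young control replicate 4, every control had 859 or more. On the log2 scale the changes were -1.79 (SE 0.59, adjusted p = 0.0248) under CR and -2.40 (SE 0.59, adjusted p = 0.00647) under resveratrol, with overlap through the outlying array. Without both outlying arrays they were -2.40 (adjusted p = 7.88e-08) under CR and -3.004 (adjusted p = 5.54e-09) under resveratrol. Without old control replicate 3 or 4, the CR call was lost (adjusted p = 0.0663 and 0.0694). Trim35 probe set c fell as well, to 7028 under CR and 6761 under resveratrol, against 11459 in old controls (log2 changes -0.73, adjusted p = 0.00101 and -0.76, adjusted p = 0.00116).

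In neocortex probe set a fell under resveratrol, with 629, 469.8, 382, 509 and 544, against 870.4, 923, 923, 928 and 709.9 in old controls (log2 change -0.79, SE 0.12, adjusted p = 4.14e-05), while CR gave 699, 635, 708, 768 and 883 and was higher than resveratrol (log2 change 0.55, SE 0.12, adjusted p = 0.00693). Another Trim35 probe set, b, rose there to 178 under resveratrol, against 114 in old controls. The Trim35 change of probe set a was higher in heart than in muscle by 2.86 (adjusted p = 0.000125) under CR and by 2.99 (adjusted p = 8.30e-05) under resveratrol.

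Trim23, a ligase that also carries a GTPase domain of the ARF type, moved by probe set. In muscle probe set c had 915, 1616, 955, 1019.5 and 1096 under CR and 959, 1028, 1113, 1162 and 968 under resveratrol, against 749.8, 531, 421, 502 and 383 in old controls, with log2 changes of 1.12 (SE 0.19, adjusted p = 0.000187) under CR and 1.05 (SE 0.19, adjusted p = 0.000595) under resveratrol, and diet and old control values did not overlap. The other probe set, a, fell in muscle to 743 under CR and 662 under resveratrol, against 1083 in old controls (log2 changes -0.59, adjusted p = 0.0485 and -0.68, adjusted p = 0.0347). In heart it was this probe set that rose under CR, with 722, 746, 570.3, 804 and 648, against 427, 437, 342, 368 and 391 in old controls (log2 change 0.82, SE 0.20, adjusted p = 0.00352) without overlap. In neocortex probe set c rose to 812 under CR and 804 under resveratrol, against 541 in old controls (log2 changes 0.59, adjusted p = 0.000349 and 0.56, adjusted p = 0.000565).

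Trim8, which acts on the cytokine inhibitor SOCS1, fell in neocortex at 3 probe sets under CR. Probe set a had 258, 231, 271, 309 and 247 under CR and 302, 280.0, 405, 333 and 330.4 under resveratrol, against 492, 485, 405, 448 and 395 in old controls, with log2 changes of -0.76 (SE 0.11, adjusted p = 2.11e-05) under CR and -0.44 (SE 0.11, adjusted p = 0.00454) under resveratrol, and only the CR values lay apart from the old controls. Probe set c had 129, 128, 91.1, 94.7 and 99.6 under CR and 117, 92.7, 137, 86.0 and 87.1 under resveratrol, against 223, 226, 171, 172 and 143 in old controls, with log2 changes of -0.78 (SE 0.18, adjusted p = 0.00294) under CR and -0.85 (SE 0.18, adjusted p = 0.00150) under resveratrol. The remaining one, probe set b, had 37.4, 93.6, 78.5, 87.5 and 68.3 under CR, against 117, 84.8, 129.7, 133 and 152 in old controls, a fall (log2 change -0.80, SE 0.27, adjusted p = 0.0300) with overlap. Its call was lost without old CR replicate 1 or 5 or without old control replicate 3, 4 or 5 (adjusted p = 0.0515 to 0.0961).

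In heart, Trim8 probe set a fell under resveratrol, with 167, 382, 305, 218 and 379, against 525, 473, 446, 519 and 528 in old controls (log2 change -0.85, SE 0.22, adjusted p = 0.00990) without overlap. It also fell under CR, to a mean of 318, against 498 in old controls (log2 change -0.69, adjusted p = 0.0295). Probe set b, low in heart, rose under CR to 148, against 57.8 in old controls (log2 change 1.70, adjusted p = 0.0221).

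Trim41, a ligase of protein kinase C, rose under both diets in heart and neocortex at probe set a. Its mean in heart was 922 under CR and 969 under resveratrol, against 669 in old controls (log2 changes 0.48, adjusted p = 0.0197 and 0.55, adjusted p = 0.0101). In neocortex it was 1287 and 1289.7, against 1092 (log2 changes 0.24, adjusted p = 0.0241 and 0.25, adjusted p = 0.0246). Probe set b fell in neocortex under CR, with 238, 238, 236, 295 and 270.4, against 319, 357, 345, 360.3 and 348 in old controls (log2 change -0.44, SE 0.10, adjusted p = 0.00146), without overlap. Under resveratrol it had a log2 difference of -0.18 (SE 0.10, adjusted p = 0.195).

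Trim39, a regulator of the anaphase-promoting complex, fell in heart under CR, with 286, 234, 187, 209.7 and 259.8, against 387, 399, 455, 601 and 520.2 in old controls (log2 change -1.003, SE 0.21, adjusted p = 0.00123) without overlap. Resveratrol gave 367, 276, 387, 383 and 395 and a log2 difference of -0.38 (SE 0.21, adjusted p = 0.264). Trim44, which has a ubiquitin-protease type zinc finger in place of a RING, had 1569, 2284, 1872, 1747 and 1937 in old control hearts, against 1759.8, 1498, 931, 1223 and 1132 in young control hearts, a rise with age (log2 change 0.55, SE 0.14, adjusted p = 0.0122) with overlapping groups. In heart Trim37 was lower under CR, with a mean of 61.2, than under resveratrol, with 218 (probe set e, log2 difference -2.11, adjusted p = 0.00382), and CR values lay near the low end of the signal.

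In muscle, Trim16 had 583, 275, 390.4, 501 and 395 under CR and 415, 404, 342, 418 and 539.9 under resveratrol, against 666, 842, 778, 767 and 974 in old controls, and every diet value lay below every old control value. The log2 changes were -0.94 (SE 0.19, adjusted p = 0.000780) under CR and -0.93 (SE 0.19, adjusted p = 0.00136) under resveratrol. Trim43a, a gene known from preimplantation embryos, rose in muscle to 199 under CR and 148 under resveratrol, against 55.7 in old controls (log2 changes 1.99, adjusted p = 0.00771 and 1.65, adjusted p = 0.0317), with the controls under the cut-off of the tissue. Trim10, known from erythroid cells, rose there under CR to 211, against 106 (log2 change 1.01, adjusted p = 0.0222). Trim62 had 266, 218, 267, 199 and 211 under CR and 199.9, 202, 226, 158 and 267 under resveratrol, against 85.3, 109, 129, 163 and 77.4 in old controls, with log2 changes of 1.08 (SE 0.22, adjusted p = 0.000801) under CR and 0.93 (SE 0.22, adjusted p = 0.00406) under resveratrol. Trim13, a ligase of the endoplasmic reticulum, fell in muscle to 566 under CR and 694 under resveratrol, against 1155 in old controls (log2 changes -1.03, adjusted p = 2.51e-05 and -0.74, adjusted p = 0.00101), and its change was higher in heart than in muscle by 1.68 (adjusted p = 1.18e-05) under CR and 1.52 (adjusted p = 8.25e-05) under resveratrol. Trim27, a nuclear and endosomal ligase, rose in muscle under CR at probe set c, to 190.1, against 111 in old controls (log2 change 0.76, adjusted p = 0.0267), and fell at probe set d, to 324, against 483 (log2 change -0.66, adjusted p = 0.0263). Endothelial marker sums in muscle had a median of 1707 under CR and 1708 under resveratrol, against 3278 in old controls, and their part in the falls was not tested.

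In neocortex, Trim62 had 109, 129.6, 152, 45.5 and 102 under resveratrol, against 143, 229.6, 152, 136 and 224 in old controls, a fall (log2 change -0.79, SE 0.25, adjusted p = 0.0229) at its other probe set, c, with overlap. It lost its call without old resveratrol replicate 4 or without old control replicate 2 or 5 (adjusted p = 0.0633 to 0.0752). Trim59, a ligase anchored in the endoplasmic reticulum membrane, had 244, 366, 351, 365 and 357 under CR (probe set a), against 636, 602, 624, 549.8 and 734 under resveratrol, without overlap, a difference of -0.91 (SE 0.15, adjusted p = 0.00140). Old controls had 416, 509, 415, 652 and 522, and probe set a fell under CR (log2 change -0.57, SE 0.15, adjusted p = 0.00550). Probe set b did not pass either test, with 107, 184, 192, 209 and 233 under CR and 241, 173, 220, 175 and 247 under resveratrol. Trim27 was lower under CR than under resveratrol, with means of 1004 under CR and 1395 under resveratrol (probe set b, log2 difference -0.47, adjusted p = 0.00381).

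Whether a change differs between tissues was tested over all 60 arrays. For age, 1 of 73 members differed between heart and neocortex (1.37%, against 4.75% of all probe sets), none between muscle and neocortex (0.637%) and 1 between heart and muscle (1.37%, against 6.01%), where the age change of Trim13 differed between heart and muscle by -1.26 (adjusted p = 0.00510). For CR, 3 differed between heart and neocortex (4.11%, against 9.06%), 10 between muscle and neocortex (13.7%, against 19.1%) and 10 between heart and muscle (13.7%, against 23.7%). For resveratrol, the counts were 1 (1.37%, against 6.08%), 4 (5.48%, against 11.8%) and 13 (17.8%, against 19.9%).

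Genes that work with the family were followed in lists, whose counts stand against the shares of all probe sets called, under CR 20.6% in heart, 32.9% in muscle and 26.5% in neocortex and under resveratrol 15.2%, 20.6% and 24.1%. Of the E2 enzymes that serve TRIM ligases, 11 were tested in heart and 10 in muscle and neocortex. Under CR, 2 rose and 1 fell in heart, 0 rose and 4 fell in muscle, and 3 rose and none fell in neocortex. Under resveratrol, 2 rose and none fell in heart, 0 rose and 4 fell in muscle, and 3 rose and 1 fell in neocortex. Of the 9 partners of TRIM28 in KRAB-directed silencing, 0 rose and 3 fell in heart, 0 rose and 4 fell in muscle and 0 rose and 4 fell in neocortex under CR, and 0 rose and 2 fell, 1 rose and 2 fell, and 0 rose and 3 fell in these tissues under resveratrol. With age, 3 of them rose in heart, against 12% of all probe sets called. Of the 11 interferon sensing and response genes, 0 rose and 3 fell in heart, 1 rose and none fell in muscle, and 1 rose and 2 fell in neocortex under CR. Under resveratrol none was called in heart, 2 rose and none fell in muscle, and 3 rose and 2 fell in neocortex. Of the RBCC genes without a Trim name, 6 were tested in heart and neocortex and 4 in muscle. Under CR 1 rose and none fell in heart, and 1 rose and 1 fell in muscle and in neocortex. Under resveratrol 0 rose and 1 fell in heart, 1 rose and none fell in muscle, and 1 rose and 1 fell in neocortex.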

How the data were processed

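RNA of 60 samples was hybridised to Affymetrix Mouse Genome 430 2.0 arrays, 1 animal per array. The authors deposited linear signal intensity values from GCOS 1.2 (version per the submitters' processing notes), with every array at the same trimmed mean of 500. Low signals of this kind scatter widely between arrays, as for Trim67 in neocortex, with 14.4 to 92.0 among young controls. The number of arrays limits the precision. Gene symbols came from GEO's platform annotation.

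Signals below 1 were set to 1 and log2 transformed. In each tissue, probe sets with a mean signal at or above the 40th percentile were fitted with limma 3.58.1 in R 4.3.3 (lmFit, eBayes with trend) over 4 groups, with Benjamini-Hochberg adjustment. Differences between tissues came from a fit of 12 groups that took every array as a separate mouse. P-values set a difference between group means against the spread between arrays within groups, which limma moderates across probe sets. The script was tested on simulated data. Python 3.11.15 with pandas 2.3.3 and matplotlib 3.10.9 was used otherwise. Any member with a called probe set could be named, and signals on every array were given for up to 4 called probe sets of a comparison, the largest changes with both group means at the cut-off, and for fixed muscle, nuclear and neuronal members. Per-array values shown beyond these, and members named only for tissue levels, were chosen after their values were seen. The members and lists were chosen with earlier results of these data known, as were the 2 outlying arrays of heart and of muscle. Alternatives were quantile normalization, an offset of 32, no filter, a 60th percentile filter, the methods' t-test, a fit of only the groups compared, 1 probe set per gene, a replicate block and leaving out arrays. The highest correlation between 2 arrays was 0.941, so that none was a duplicate.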

Additional observations from a re-analysis of the deposited data

Results flagged for a closer look

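Within groups of 5 arrays, 15 of 148 groups held 1 array apart from the others by Dixon's criterion (10.1%), where chance gives about 1 in 20. The values are the gap to the nearest array over the range of the group. In heart they were 0.747 for Trim54 in young control replicate 1, 0.763 for Trim39 in old resveratrol replicate 2, 0.789 for Trim39 in young control replicate 1, 0.856 for Trim28 probe set a in young control replicate 1, 0.823 for Trim72 in old control replicate 4. In muscle they were 0.809 for Trim35 probe set a in young control replicate 4, 0.764 for Trim2 probe set f in young control replicate 4, 0.742 for Trim23 probe set c in old CR replicate 2, 0.872 for Trim33 probe set a in young control replicate 4, 0.829 for Trim32 in young control replicate 4. In neocortex they were 0.792 for Trim8 probe set b in old resveratrol replicate 1, 0.737 for Trim35 probe set a in old control replicate 5, 0.878 for Trim59 probe set a in old CR replicate 1, 0.829 for Trim59 probe set a in young control replicate 5, 0.841 for Trim9 probe set c in old CR replicate 3. In heart young control replicate 1 and in muscle young control replicate 4 recur, and both are among the outlying arrays. Those arrays were chosen with earlier results of these data known, so the recurrence is no separate support for the choice.

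The change of these probe sets differed between tissues in the fit of all 60 arrays, as log2 differences of changes. For the age change in heart minus that in neocortex the difference was 0.55 for Trim44 probe set b. For the CR change in heart minus that in neocortex the difference was -0.90 for Trim39, 0.64 for Trim24 probe set a and 2.49 for Trim8 probe set b, which is low in heart. For the CR change in muscle minus that in neocortex the difference was -0.47 for Trim44 probe set b, -1.55 for Trim35 probe set a, 0.71 for Trim33 probe set a, -0.90 for Trim23 probe set a, 2.02 for Trim62 probe set b and 2.15 for Trim46 (adjusted p = 0.0442). The Trim46 signal in muscle lies below the muscle cut-off of 84.0, and its change was not tested within that tissue. For the CR change in heart minus that in muscle the difference was -0.82 for Trim39, 2.86 for Trim35 probe set a, 1.41 for Trim23 probe set a, 0.92 for Trim24 probe set a and -1.24 for Trim23 probe set c. For the resveratrol change in heart minus that in neocortex the difference was -1.07 for Trim12c probe set a. For the resveratrol change in muscle minus that in neocortex the difference was 0.67 for Trim33 probe set a and -0.97 for Trim23 probe set a. For the resveratrol change in heart minus that in muscle the difference was -0.77 for Trim28 probe set a, -1.13 for Trim8 probe set a, 2.99 for Trim35 probe set a, -0.63 for Trim33 probe set a, 0.95 for Trim23 probe set a, 0.54 for Trim24 probe set a, -0.66 for Trim32 and -0.91 for Trim23 probe set c.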

How the results depend on the processing

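Counts of members called in heart were 3 for age, 11 for CR, 6 for resveratrol and 1 for CR minus resveratrol, in muscle 0, 20, 13 and 1, and in neocortex 2, 15, 18 and 6. Under quantile normalization CR minus resveratrol in heart had 3. The splits under CR became 4 up and 9 down in heart, 6 and 13 in muscle and 6 and 9 in neocortex, the differences of changes became 3 and 5 in place of 5 and 5 (CR, muscle minus neocortex) and 8 and 6 in place of 6 and 7 (resveratrol, heart minus muscle), and the median of all probe sets in muscle under CR was 0.03 in place of 0.16. With a 60th percentile filter CR minus resveratrol in heart had 0 and heart minus muscle 7 in place of 12. The methods' t-test after Benjamini-Hochberg gave 1 for age and 0 for CR minus resveratrol in heart, 0 for CR minus resveratrol in muscle, and 0 for age and 2 for CR minus resveratrol in neocortex. Unadjusted at its threshold it gave 5 for CR minus resveratrol in heart and 4 for age in muscle and in neocortex. A fit of only the groups compared gave 2 (heart) and 0 (muscle) for CR minus resveratrol and 1 for age in neocortex. With 1 probe set per gene, CR had 7 in heart, 13 in muscle and 8 in neocortex, resveratrol 9 and age 1 in neocortex. Without the outlying arrays CR minus resveratrol in heart had 3. With no filter, CR minus resveratrol in muscle had 0 and age in neocortex 1, and the tissue calls were 65 (heart minus neocortex) and 22 (heart minus muscle).

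The replicate numbers showed no pairing of the samples in most comparisons (correlation of same-numbered deviations -0.234 to 0.12 over all). For CR in muscle all were positive, with a mean of 0.067, against -0.016 for other numbers. There 3 arrays of 5 correlated best with their own number. The replicate block gave 0 for CR minus resveratrol in muscle and 1 for age in neocortex. Of the differences of changes between heart and neocortex, age had 1 and became 0 under quantile normalization, no filter and the replicate block and 2 with the offset, CR had 3 and became 5 with the offset, and resveratrol had 1 and became 0 under quantile normalization, no filter and the offset and 2 with the 60th percentile filter or the block. The causes were not tested.

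Leaving out 1 array at a time gave 3 to 4, 7 to 11, 5 to 8 and 1 for age, CR, resveratrol and CR minus resveratrol in heart, 0 to 2, 13 to 19, 8 to 14 and 0 to 2 in muscle, and 1, 13 to 17, 12 to 19 and 4 to 9 in neocortex. Of 795 values of 42 named results under alternatives, 717 kept direction and call, 78 lost the call and 0 reversed. The 42 results were chosen because they were called, so that none could gain a call and most were likely to keep it. Of the 795 values, 420 came from leaving out 1 array. The CR call of Trim24 in heart was lost without the outlying arrays (adjusted p = 0.0506) and with no filter (0.0723), that of Trim12c between the diets in muscle in a fit of the diets alone (0.102), and the age call of Trim54 in heart under the methods' t-test after Benjamini-Hochberg (0.0656).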
